A study of Mus musculus with 8 samples.

Results

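The deposited comparison described here, the later of a pair of tables in the series, sets livers of mice lacking Cpeb4 against livers of wild-type mice across 23634 genes, of 24375 genes in the whole series. Every gene of that table was taken. The series holds 8 libraries in 4 groups of 2: RNA of total liver, and RNA of endoplasmic reticulum (ER) purified from whole liver, each from Cpeb4 knockout and from wild-type mice. The table rests on 4 libraries, 2 of each genotype, but neither its columns nor the labels say whether they are total liver or purified ER, so the preparation is not assigned here. The mice behind the ER preparation had been fasted overnight; no source used here gives the feeding state behind total liver RNA, the age, the strain or the way the knockout was made. Nothing in the labels ties the 2 libraries of a genotype to separate mice, so each p-value reflects library-to-library spread that may be only technical.

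CPEB4 belongs to the cytoplasmic polyadenylation element binding proteins. These bind U-rich elements (CPEs) in the 3′ UTR of mRNAs and recruit enzymes that lengthen or shorten the poly(A) tail, so their first effect is on translation and stability, and the level of an mRNA in RNA sequencing shows only part of it. In liver the family is studied for the control of ER homeostasis and lipid storage, and the title of the series names hepatic steatosis, the build-up of fat in hepatocytes.

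The table gives a mean per gene over its libraries and no value per library, but its means carry 15 significant digits and are sums of whole reads divided by the size factor of each library. They could be split back into reads. For 23532 of 23634 genes (99.6%) a single combination of those searched gave both the deposited mean and the deposited fold change. Each combination is of whole reads in 4 libraries, and the median distance was 1.16e-09 on the log2 scale. The 102 genes without a unique solution were almost all abundant, 97 of them with a mean above 10000. The sides of the comparison follow from genes with a single read: all 1735 of them had the sign of the side of their library. The libraries are called W1 and W2 (wild-type side) and K1 and K2 (knockout side), names that tie them to no labelled sample. Values below are normalised read counts, that is, reads over the library's size factor. They compare a gene between libraries and not one gene with another, since transcript length is not taken out. The reads in recovered genes numbered 28811790 in W1, 16463097 in W2, 29028639 in K1 and 20587188 in K2.

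K1 stood apart from the other libraries. Over 10883 genes with a mean of at least 100, the SD of the log2 difference between the wild-type libraries was 0.209, and it was 0.193 and 0.198 between K2 and each wild-type library. Against K1 the SD was 0.267 for W1, 0.270 for W2 and 0.232 for K2, so K2 lay closer to both wild-type libraries than to K1. Results are therefore also given without K1. The Y-linked genes Ddx3y, Eif2s3y, Kdm5d and Uty were present in all 4 libraries, with Ddx3y at 3076 in W1, 3047 in W2, 2972 in K1 and 3239 in K2. Of 10 hepatocyte markers, 9 were tested and abundant, led by Alb, the plasma protein albumin. Trf, transferrin, had almost no counted reads, at 0, 2.79, 0 and 1.11 in W1, W2, K1 and K2. Whether its reads were lost in counting or annotation was not tested. Small amounts of other tissues differed between libraries: 11 exocrine pancreas markers were in the table, and the 10 recovered ones summed to 647, 669 and 679.5 in W1, W2 and K2 and to 1947 in K1. Cela1 alone held 58.4% of that list. Without it the sums were 129 in W1, 97.6 in W2, 103 in K2 and 1311 in K1. Pnlip, pancreatic lipase, was at 75.2 in K1 and 0 in the other libraries. Of 7 skeletal muscle markers, 5 (Myl1, Myh1, Myh4, Tnnc2 and Ckm) had reads in W1 alone, and the list summed to 256 in W1 against 18.1 to 34.0 elsewhere. The part of such tissue in the results was not tested. The Kupffer cell and macrophage markers summed to 12584 in W1, 10088 in W2, 10761 in K1 and 9683 in K2, with the ranges of the sides overlapping. The erythroid markers summed to 12659 and 13961 in the wild-type and 11228 and 9080 in the knockout libraries and did not overlap; that sum is nearly all from 4 globin genes, none of them called.

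Cpeb4 was the gene with the smallest p of the table, and the direction of the whole comparison is read from it. Cpeb4 (ENSMUSG00000020300, GRCm38 chromosome 11, 31872211 to 31935634, plus strand) was at 1511 in W1, 1657 in W2, 506 in K1 and 579.9 in K2. Both knockout libraries lay far below both wild-type libraries and the sides did not overlap. In the authors' deposited table its log2 fold change was -1.16 ± 0.11 (SE), at an adjusted p of 3.18e-24 in their Wald test. That estimate is moderated, that is, drawn towards 0 by a prior. Refitted on the recovered reads with no moderation, the Cpeb4 fold change was -1.55 ± 0.14. The dispersion used in refits is not among the deposited values and was solved for each gene from the deposited standard error. In moderated refits without 1 library the prior pulls harder towards 0, because 1 side holds a single library. Because the sides were named from this gene, its value is no independent check of the labels; the sources used here do not say which part of the gene was deleted. Within 5 Mb of Cpeb4, 42 genes were tested and Cpeb4 alone was called.

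Called genes are those with an adjusted p under 0.05 in the authors' deposited table. There were 42 among the 14180 genes with an adjusted p (0.296%), 13 higher in the knockout (0.0917%) and 29 lower (0.205%). The table leaned to neither side, since 50.4% of tested genes had a negative fold change and the median was -0.00083. Of the called genes, 41 could be split into reads, and in all 41 the knockout and wild-type libraries did not overlap. Across the 14082 tested genes that were split, 37.7% did not overlap either, so the separation of 2 libraries from 2 says little by itself. Below, calls are also given after a refit without 1 library. Such a refit leaves 1 library on a side, so a call can be lost from fewer data alone. A lost call does not by itself show that it rested on the library left out. All but 1 of the called genes are annotated as protein coding. Of the 42, 33 belong to at least 1 of the 39 gene groups considered, a count that leaves out the 12 marker lists. These groups were chosen with earlier results of these data known, and the share of all tested genes in them is not given. The count is therefore no result about the groups.

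**Figure D1:**
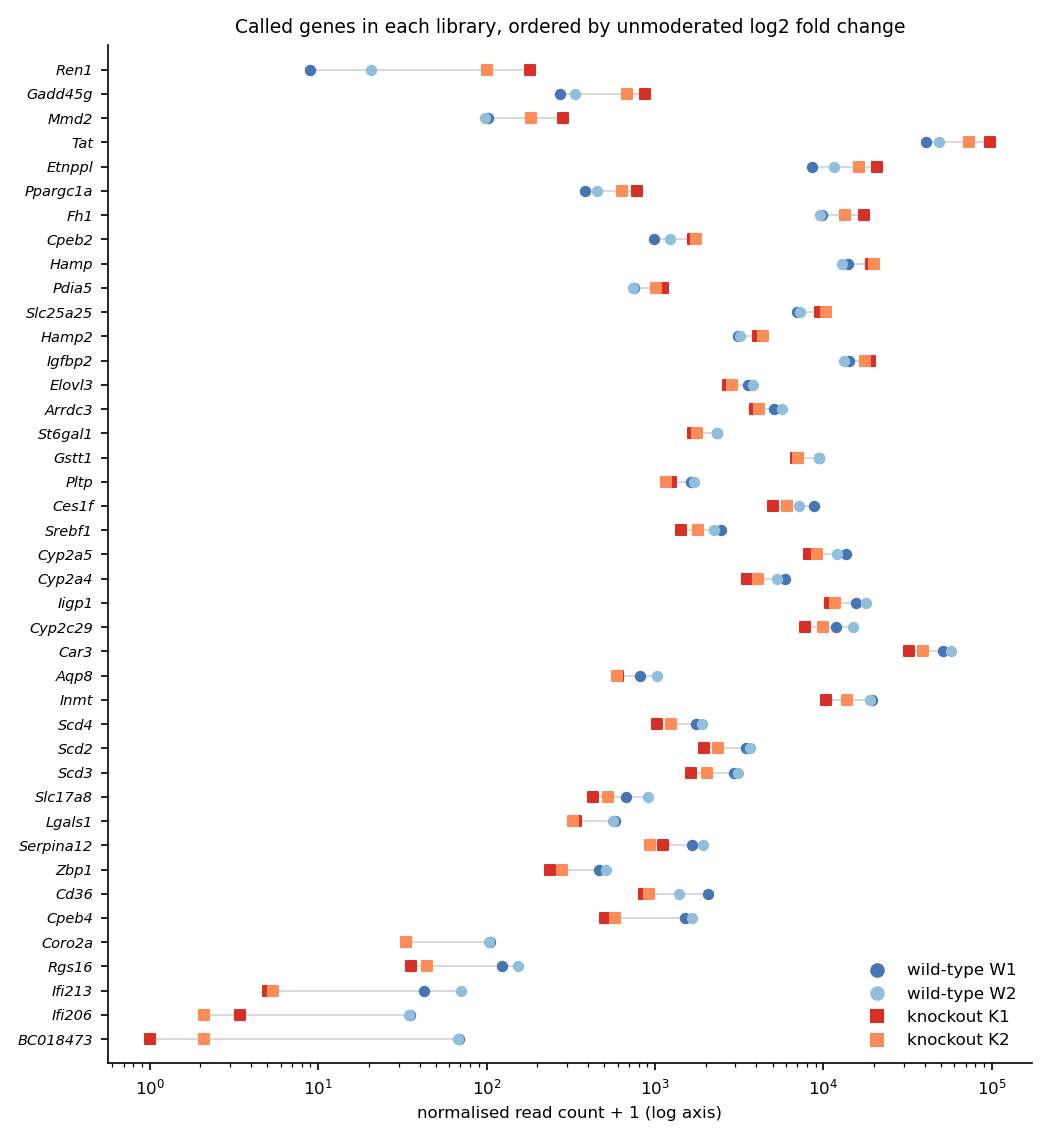
Normalised read count plus 1 (log axis) of 41 called genes in the wild-type libraries W1 and W2 (circles) and the knockout libraries K1 and K2 (squares); each point is 1 library, with no error bar, and the grey line spans the 4 values. Genes are ordered by unmoderated log2 fold change from Ren1 at the top (3.44) to BC018473 at the bottom, and the 2 sides do not overlap in any row.

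Among the paralogs of Cpeb4, Cpeb2 moved in the other direction. Cpeb2, another RNA-binding protein of the family, was at 987 in W1, 1227 in W2, 1689 in K1 and 1749 in K2. Both knockout libraries lay above both wild-type libraries, at a deposited log2 fold change of 0.48 ± 0.11 (adjusted p = 0.00305, the authors' deposited table). Its call was lost without W1, K1 or K2, at adjusted p-values of 0.803, 0.123 and 0.0867 (the moderated test refitted on recovered reads). Cpeb1 was at 647 in W1, 788 in W2, 690.2 in K1 and 728 in K2 and Cpeb3 had a deposited log2 fold change of 0.14 ± 0.12, and neither passed. In the list of CPEB proteins and poly(A) machinery, 30 members were tested, 1 was called higher, 1 lower and 28 were not called, with a median log2 fold change of 0.01. Tob1, an adaptor of the deadenylase complex, came next at 2747 in W1, 2951 in W2, 3704 in K1 and 3358 in K2 (deposited log2 fold change 0.26 ± 0.09, adjusted p = 0.484 in the authors' deposited table).

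The 3′ UTRs of both family members are rich in the consensus CPE, searched here as TTTTAT and TTTTAAT on the sense strand of the longest annotated 3′ UTR of each gene (GENCODE M21, GRCm38). They are shown with 2 called metabolic genes to let the element be seen in its context. Each window holds 30 bases in mRNA sense around the match nearest the annotated 3′ end, with the match in capitals.
Cpeb4 (chr11:31935406-31935435, plus strand): gggtaattcattTTTTATtaaagtcatttt
Cpeb2 (chr5:43289554-43289583, plus strand): taatttagtttaTTTTATtgttatcttcca
Ppargc1a (chr5:51454330-51454359, minus strand): gtattgttgtggTTTTATtcattgtatgaa
Cd36 (chr5:17782193-17782222, minus strand): attttgttataaTTTTATagcagcagtgtg
The Cpeb4 3′ UTR of 4102 bases held 17 matches and that of Cpeb2, of 3778 bases, held 24. Those of Ppargc1a and Cd36 held 9 and 4. It was present in the 3′ UTR of 62.8% of 11806 tested genes and of 61.0% of 41 called genes, 9 of the 13 called higher and 16 of 28 called lower. The median deposited log2 fold change was -0.01 in 4392 genes without a match and 0.00 in 724 genes with 8 or more, whose 3′ UTRs are longer (median 4456 against 499 bases). A match is only a run of letters, and binding was not measured here.

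The largest deposited increases were those of Gadd45g and Tat. Gadd45g, a growth arrest and DNA damage-inducible gene, was at 273 in W1, 333 in W2, 869.8 in K1 and 682 in K2. Both knockout values were more than those of either wild-type library, and the deposited log2 fold change was 0.85 ± 0.12 (adjusted p = 3.74e-09, the authors' deposited table). It passed without any one of the libraries, at adjusted p-values from 4.38e-08 to 0.00114 in the refitted moderated test. Tat, tyrosine aminotransferase, the first enzyme of tyrosine breakdown, was at 40679 in W1, 48453 in W2, 97695 in K1 and 73550.1 in K2. K1 was the highest, and without K1 Tat did not pass (adjusted p = 0.0758, refitted moderated test). Ppargc1a, the coactivator PGC-1α of gluconeogenic and mitochondrial genes, was at 384 in W1, 454 in W2, 786 in K1 and 639.7 in K2, with a deposited log2 fold change of 0.51 ± 0.12 (adjusted p = 0.00648, the authors' deposited table); it lost its call without W1 or K1 (adjusted p = 0.624 and 1, refitted moderated test).

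The gluconeogenesis and fasting list held the increases of Tat and Ppargc1a but not that of Gadd45g. Of its 20 tested members, 2 were called higher (Tat and Ppargc1a), none lower, and 16 were above 0, with a median log2 fold change of 0.12 beside -0.00083 for all tested genes. Members not called included Igfbp1, a secreted IGF-binding protein that insulin represses, at 245 in W1, 372 in W2, 1246 in K1 and 574 in K2; the values are far apart between K1 and K2, and the deposited estimate was 0.21 ± 0.09. In 11 of 18 recovered members both knockout libraries lay above the mean of the wild-type libraries, against 30.4% of all tested genes. Over those 18 members the median was 0.11; it was 0.05 without W1, with 7 below 0, and 0.06 without K1, with 4 below 0. Amino acid breakdown enzymes, which include Tat, Got1, Gpt and Sds of the list above, lay higher still. Of their 30 tested members 25 were above 0, with a median of 0.15, although Tat alone was called. K1 lay furthest from the wild type: the median library value over 25 recovered members was 0.35 above the wild-type mean in K1 and 0.11 above it in K2 (log2), and without K1 the median fold change was 0.03. Aass, which begins lysine breakdown, was at 17173 in W1, 18032 in W2, 30112 in K1 and 20454 in K2, with K1 far above the rest. In the urea cycle list 8 of 9 tested members were above 0 and none was called. Slc25a15, the mitochondrial ornithine carrier, came closest at 18399 in W1, 18936 in W2, 31042 in K1 and 22778 in K2 (adjusted p = 0.0591, the authors' deposited table).

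Immediate early genes and Gadd45 relatives had 16 of 22 tested members above 0, with 1 called higher. Myc, a growth-promoting transcription factor, was at 88.2 in W1, 121 in W2, 172 in K1 and 292 in K2 (adjusted p = 0.0817 in the authors' deposited table), and Nr4a1, an inducible nuclear receptor, at 31.01 in W1, 48.8 in W2, 121 in K1 and 78.6 in K2. Here the knockout libraries lay above both wild-type libraries in both genes, and K2 was the higher of the 2 for Myc and K1 for Nr4a1.

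Other called increases were in mitochondrial, iron and hormone genes. Etnppl, which breaks down phosphoethanolamine, was at 8554 in W1, 11576 in W2, 20769 in K1 and 16246 in K2, and Fh1, fumarate hydratase of the TCA cycle, at 9851 in W1, 9523 in W2, 17499 in K1 and 13492 in K2. In both K1 was the highest library, and both lost their call without it (adjusted p = 0.281 and 0.986, refitted moderated test); Etnppl also lost it without W1 (0.211). Slc25a25, a mitochondrial ATP-Mg/phosphate carrier, was at 6967 in W1, 7283 in W2, 9619 in K1 and 10325 in K2 and kept its call without K1 (adjusted p = 0.0244), though not without W1 or K2 (0.107 and 0.0927). Hamp, the iron-regulatory hormone hepcidin, was at 14015 in W1, 12854 in W2, 19221 in K1 and 19920.3 in K2. It passed without any one library (highest adjusted p = 0.0346, refitted moderated test). Its neighbour Hamp2 was at 3108 in W1, 3200.2 in W2, 4105 in K1 and 4377 in K2, and since over 25% of the 31-base words of both occur in another gene, their reads may be divided between copies. They were the 2 called of 18 tested members of the iron list. Tmprss6, a protease that represses hepcidin, was at 8734 in W1, 8349 in W2, 7006 in K1 and 7521 in K2 (deposited log2 fold change -0.20 ± 0.09, adjusted p = 0.956 in the authors' deposited table).

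Ren1, which encodes renin, the protease that starts the angiotensin cascade, had the largest unmoderated increase among called genes. It was at 7.95 in W1, 19.5 in W2, 179.6 in K1 and 99.6 in K2, so that reads were few on the wild-type side. Both knockout libraries lay far above both wild-type libraries. The deposited log2 fold change was 0.64 ± 0.10 and the unmoderated one 3.44 ± 0.50, and it kept its call without K1 (adjusted p = 0.000728), not without W1 (0.13, refitted moderated test). The other 5 tested members of the renin-angiotensin list were not called. Mmd2, a membrane protein, was at 101 in W1, 97.6 in W2, 285 in K1 and 181 in K2. Igfbp2, a secreted IGF-binding protein, was at 14262 in W1, 13315 in W2, 18916 in K1 and 17672 in K2, and Pdia5, a protein disulfide isomerase of the ER, at 749 in W1, 736 in W2, 1111 in K1 and 1016 in K2. These 3 lost their calls without W1, W2 or K1, and Pdia5 and Igfbp2 without any of the libraries. Pdia5 was the 1 called member of 29 tested in the list of the unfolded protein response and ER quality control, whose median was -0.07 and in which 20 members lay below 0. The knockout libraries did not go together in that list: the median library value was 0.07 above the wild-type mean in K1 and 0.19 below it in K2. Without K2 the median fold change turned to 0.05, with 12 of 29 below 0, and without K1 it was -0.13, with 26 of 29 below 0.

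The 4 stearoyl-CoA desaturases, Srebf1 and Elovl3 fell. Of 29 tested members of the fatty acid and triglyceride synthesis list, 6 were called lower (Srebf1, Scd1, Scd2, Scd3, Scd4 and Elovl3), none higher, and 23 were not called; 25 lay below 0, with a median log2 fold change of -0.08. Scd1, the main stearoyl-CoA desaturase of liver, which makes monounsaturated fatty acids, had a mean of 134891 normalised counts and a deposited log2 fold change of -0.57 ± 0.09 (adjusted p = 9.83e-07, the authors' deposited table); its mean was too high to be split into libraries. Scd2 was at 3453 in W1, 3671 in W2, 1946 in K1 and 2371 in K2. Both knockout libraries lay below both wild-type libraries, K1 lowest. Scd3 and Scd4 repeated that order, and their ratio to Scd2 barely moved: Scd3 stood at 0.857, 0.849, 0.842 and 0.857 of Scd2 in W1, W2, K1 and K2, and Scd4 at 0.509, 0.521, 0.528 and 0.522. All 4 Scd genes lie between 44203269 and 44407879 on chromosome 19 (GRCm38), and from 6.81% (Scd2) to 15.2% (Scd3) of their 31-base words occur in another gene, so whether the reads of Scd2, Scd3 and Scd4 are their own was not tested. The calls of Scd2, Scd3 and Scd4 were lost without K1 (adjusted p = 0.2, 0.282 and 0.424, refitted moderated test), that of Scd4 also without W2 (0.0582).

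Srebf1, the transcription factor SREBP1 that turns on lipogenic genes, was at 2479.7 in W1, 2239.9 in W2, 1429 in K1 and 1806 in K2 (deposited log2 fold change -0.41 ± 0.11, adjusted p = 0.0449, the authors' deposited table). K2 lay between K1 and the wild-type libraries, and the call was lost without W1, W2 or K1. Elovl3, a fatty acid elongase, was at 3576 in W1, 3798 in W2, 2713 in K1 and 2856 in K2. Just outside the threshold lay Pklr, liver pyruvate kinase, at 3776 in W1, 3903 in W2, 2849 in K1 and 2996 in K2 (adjusted p = 0.0502, the authors' deposited table). Mlxipl, the glucose-responsive factor ChREBP, was at 2120.3 in W1, 2102 in W2, 1524 in K1 and 1735 in K2 and Fasn, fatty acid synthase, at 2898 in W1, 2443 in W2, 2126 in K1 and 2086 in K2; neither passed (adjusted p = 0.264 and 0.479, the authors' deposited table). In 15 of the 28 recovered members both knockout libraries lay below both wild-type libraries, against 19.5% of all tested genes. The list's median was -0.09 without K1, -0.07 without W1, and -0.15 without W2 or K2.

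Lipid uptake and transport showed single calls. Cd36, the fatty acid translocase, was at 2073 in W1, 1385 in W2, 862 in K1 and 915 in K2. The wild-type libraries differed from each other by more than the knockout libraries did, W1 being the highest, and without W1 or K1 the call was lost (adjusted p = 0.636 and 0.0835, refitted moderated test). Cd36 was the 1 called member of 22 tested in the list of lipid droplets and fatty acid uptake, with 13 below 0 and a median of -0.07. Pltp, a phospholipid transfer protein of plasma lipoproteins, was at 1633 in W1, 1714 in W2, 1239.6 in K1 and 1164 in K2 and was the 1 called of 20 tested lipoprotein genes. In cholesterol synthesis 9 of 21 tested members were below 0, with a median of 0.00 and none called; 15 of 21 were below 0 without W2 or without K1 (medians -0.05 and -0.03) and 5 of 21 without W1. Fatty acid oxidation and ketogenesis had 17 of 30 below 0, a median of -0.02 and none called. Over its 24 recovered members the median was -0.06; it was -0.09 with 21 below 0 without W2, and -0.01 with 12 below 0 without W1. Vnn1, a pantetheinase, was at 3636 in W1, 2282 in W2, 1516 in K1 and 1880.2 in K2, with W1 far above the other libraries.

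**Figure D2:**
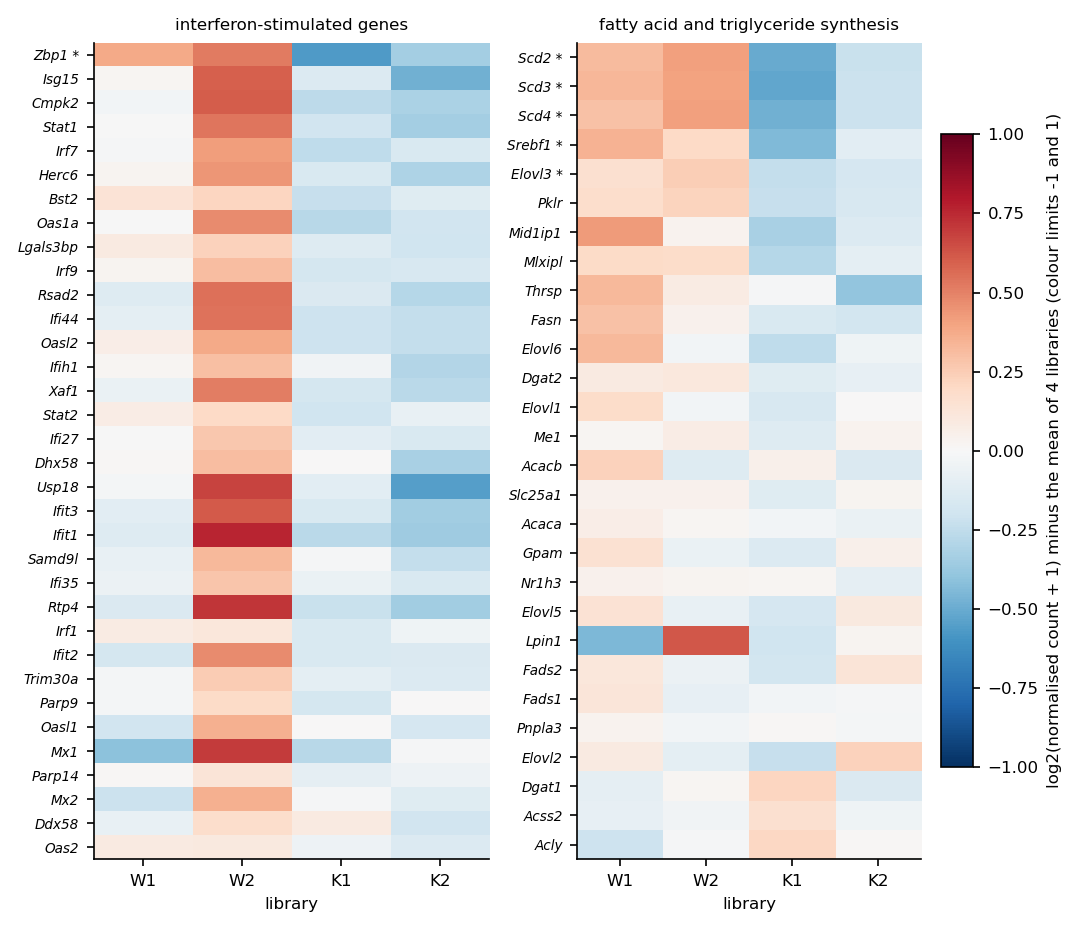
Heat maps of log2(normalised count + 1) minus the mean of the 4 libraries for the recovered, tested members of 2 gene groups, 1 row a gene ordered by deposited fold change, 1 column a library; asterisks mark called genes and the colour scale ends at -1 and 1. All 34 interferon-stimulated genes are highest in W2, while in the fatty acid list W1 lies above both knockout libraries in 21 of 28 genes.

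Interferon-stimulated genes lay lower in the knockout, but by an amount that depended on 1 wild-type library. All 34 tested members were below 0, beside 50.4% of all tested genes, with a median of -0.21, and 1 of them was called. In all 34 the highest library was W2, which was the highest in 24.4% of all tested genes. The median library value was 0.20 below the wild-type mean in W1, 0.20 above it in W2, 0.35 below in K1 and 0.36 below in K2 (log2). W1 still lay above both knockout libraries in 27 of 34 members, against 33.8% of tested genes. Without W2 the median of the list fell in size to -0.06, with 29 of 34 below 0. Without W1, K1 or K2 it was -0.25, -0.19 or -0.17. The called member was Zbp1, a sensor of Z-form nucleic acids, at 462 in W1, 509 in W2, 239 in K1 and 280.0 in K2 (deposited log2 fold change -0.57 ± 0.12, adjusted p = 0.000833, the authors' deposited table). Its call was lost without W2 or K1 (adjusted p = 0.0688 and 0.422, refitted moderated test). Isg15, a ubiquitin-like protein, was at 848 in W1, 1266 in W2, 757 in K1 and 598 in K2 and Bst2, tetherin, at 2781 in W1, 2934 in W2, 2156 in K1 and 2325 in K2; neither passed (adjusted p = 0.248 and 0.248, the authors' deposited table). In bulk RNA, fewer cells that express these genes and less RNA per cell cannot be told apart. The Kupffer cell and macrophage list had 13 of 15 members below 0 beside them, with none called and a median of -0.08 that turned to 0.02 without W1; its part in the interferon genes was not tested.

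Among interferon-induced GTPases W2 was the highest library in 9 of 11 genes. Of 11 tested, 10 were below 0 and 1 was called: Iigp1, at 15611 in W1, 18025 in W2, 10929.8 in K1 and 11663 in K2. Its 2 sides did not overlap and W2 was highest (deposited log2 fold change -0.48 ± 0.09, adjusted p = 0.000208, the authors' deposited table). Without W2 or K1 its adjusted p was 0.169 or 0.123 (refitted moderated test), and without W2 the list's median went from -0.20 to -0.04; without W1 it was -0.31. Gbp7 was at 390.4 in W1, 491 in W2, 273 in K1 and 288 in K2, without a call. MHC class I genes, also induced by interferon, had 14 of 16 below 0, a median of -0.02 and none called; W2 was highest in 14 of 15 recovered members. Without W2 the median turned to 0.04 with 4 of 15 below 0, and without W1 it was -0.10 with all 15 below 0.

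In the HIN-200 family of DNA sensors, encoded in a cluster on chromosome 1, the levels of some members fell close to 0. Ifi206 was at 34.2 in W1, 33.5 in W2, 2.43 in K1 and 1.11 in K2, and Ifi213 at 41.3 in W1, 69.7 in W2, 4.05 in K1 and 4.43 in K2. In both, the wild-type libraries lay far above the knockout libraries. Their deposited log2 fold changes of -0.29 ± 0.07 and -0.41 ± 0.09 understate this, and the unmoderated ones were -4.20 ± 0.98 and -3.70 ± 0.72. Both calls were lost without K1 or K2, when 1 knockout library remains. Ifi205 was at 101 in W1, 114 in W2, 41.3 in K1 and 49.8 in K2, Ifi204 at 204 in W1, 284 in W2, 125 in K1 and 136 in K2 and Ifi208 at 38.2 in W1, 43.2 in W2, 11.3 in K1 and 12.2 in K2, none of them called, although in each the knockout libraries lay below both wild-type libraries. In all, 9 of 10 tested members were below 0 and 2 were called. The list's median was -0.26. It was -0.23 without W1, -0.20 without W2, -0.16 without K1 and -0.18 without K2. The prior pulls harder towards 0 in these refits, so part of each move can come from that. The median was -0.06 when genes that share over 25% of their 31-base words with another gene were left out, which removes Ifi206 and Ifi213.

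Part of these genes share a sequence in their promoters. The core of the interferon-stimulated response element, GAAA followed by any 2 bases and GAAA, was searched on both strands from 250 bases before to 50 bases after each start site (RefSeq, GRCm38.p6). It occurs in 3.97% of 9735 tested genes with a promoter in that table. In the 3 interferon lists together it occurs in 23 of 38 genes: 10 of 23 interferon-stimulated genes, 6 of 6 GTPases and 7 of 9 HIN-200 genes. Windows of 30 bases around the match are given on the strand of the gene, with the match in capitals (in Gbp7 it reads on the opposite strand).
Ifi206 (chr1:173491339-173491368, minus strand): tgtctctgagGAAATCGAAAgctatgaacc
Ifi213 (chr1:173599326-173599355, minus strand): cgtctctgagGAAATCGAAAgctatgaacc
Ifi208 (chr1:173673597-173673626, plus strand): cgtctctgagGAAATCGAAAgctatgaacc
Isg15 (chr4:156200865-156200894, minus strand): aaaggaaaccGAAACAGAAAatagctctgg
Bst2 (chr8:71537577-71537606, minus strand): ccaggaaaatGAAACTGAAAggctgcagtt
Irgm2 (chr11:58214903-58214932, plus strand): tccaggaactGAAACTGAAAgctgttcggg
Gbp7 (chr3:142530273-142530302, plus strand): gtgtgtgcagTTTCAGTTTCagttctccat
The windows of Ifi213 and Ifi208 are identical. Within the interferon lists, genes with and without the core had like medians (-0.24 in both, 23 and 15 genes). Outside the lists, 57.6% of 363 tested genes with the core were below 0, with a median of -0.02, against 52.2% of 9334 genes without it. A match is a description, and no factor's binding was measured.

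Among enzymes that clear drugs, hormones and other foreign compounds, 6 were called lower. Of 37 tested cytochromes P450 of families 1 to 3, 3 were called lower and 26 lay below 0, with a median of -0.10. Cyp2a5, the coumarin hydroxylase, was at 13581 in W1, 12104 in W2, 8272 in K1 and 9197 in K2 and Cyp2a4, a steroid hydroxylase, at 5932 in W1, 5301 in W2, 3531 in K1 and 4068 in K2. The ratio of Cyp2a4 to Cyp2a5 ran from 0.427 to 0.442 over the 4 libraries and 58.9% and 54.6% of their 31-base words occur in other genes, so the 2 may not be separate measurements. The calls were lost without W1 (adjusted p = 0.204 for Cyp2a5 and 0.29 for Cyp2a4) or without K1 (0.282 and 0.58, refitted moderated test). Cyp2c29 was at 11878 in W1, 15068 in W2, 7822 in K1 and 9957 in K2; K2 came nearest to W1, and its call was lost without W2 or K1. Carboxylesterases had 15 of 16 tested members below 0 and a median of -0.14, with Ces1f called, at 8856 in W1, 7185 in W2, 5046 in K1 and 6097 in K2. Without K1 that median was -0.09, and Ces1f lost its call without W1 or K1 (adjusted p = 1 in both, refitted moderated test). Gstt1, a glutathione transferase, was at 9403 in W1, 9451 in W2, 6874 in K1 and 7069 in K2; its call was lost without W1, W2 or K1 (adjusted p = 0.0841, 0.0711 and 0.281, refitted moderated test). Inmt, an indolethylamine methyltransferase, was at 19421 in W1, 18812 in W2, 10418 in K1 and 13832 in K2, where K1 lay lowest and the call was lost without K1 or W1 (adjusted p = 1 and 0.0841, refitted moderated test). They were the 2 called of 32 tested conjugation and methylation enzymes, of which 19 were below 0; the list's median of -0.02 turned to 0.04 without K2, with 15 of 31 below 0. Aqp8, a water channel of hepatocytes and bile canaliculi, was at 819 in W1, 1024 in W2, 600.4 in K1 and 591 in K2 and was the 1 called of 20 tested bile acid and transport genes; its call was lost without W2, K1 or K2 (adjusted p = 1, 0.547 and 0.257, refitted moderated test).

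Serpina12, vaspin, a secreted serpin known from adipose tissue, was at 1654 in W1, 1933 in W2, 1117 in K1 and 931 in K2, with K2 lowest. It kept its call without W1, W2 or K1 and missed it without K2 (adjusted p = 0.0552, refitted moderated test). Lgals1, galectin-1, was at 579 in W1, 564 in W2, 337 in K1 and 326 in K2; the log2 fold change was -0.54 ± 0.11 in the authors' deposited table, and the call was lost without W1, K1 or K2 (adjusted p = 0.0841, 0.123 and 0.0563, refitted moderated test). Rgs16, a regulator of G-protein signalling with a daily rhythm in liver, was at 123 in W1, 152 in W2, 34.8 in K1 and 43.2 in K2 and was the 1 called of 19 tested clock genes and outputs; its call was lost without K1 (adjusted p = 0.338, refitted moderated test). Coro2a, a coronin, was at 104 in W1, 102 in W2, 32.4 in K1 and 32.1 in K2; its call was lost without W1, K1 or K2 (adjusted p = 0.0841, 0.58 and 0.187, refitted moderated test). Car3, carbonic anhydrase III, abundant in liver and in fat, was at 51121 in W1, 57708 in W2, 32155 in K1 and 39150.0 in K2, and its call was lost without W2 or K1 (adjusted p = 0.173 and 0.645, refitted moderated test). It is also on the adipocyte marker list, where Adipoq, Lep, Plin1 and Retn had between 0 and 16.7 normalised counts in any library, Cfd 29.9 to 57.4 and Fabp4 172.5 to 254.9. St6gal1, a sialyltransferase, was at 2334 in W1, 2339 in W2, 1687 in K1 and 1779.5 in K2, Arrdc3, an arrestin-domain protein, at 5078 in W1, 5676 in W2, 3928 in K1 and 4121 in K2, and Slc17a8, a vesicular glutamate transporter, at 676 in W1, 909 in W2, 429.7 in K1 and 525 in K2. All 3 lost their calls without K1, as they did without W2 or K2.

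BC018473, an antisense noncoding gene on chromosome 11 (116752167 to 116759373, plus strand), was present in the wild-type and nearly absent in the knockout libraries, at 67.6 in W1, 66.9 in W2, 0 in K1 and 1.11 in K2. These are 85 and 48 reads in W1 and W2 against 0 and 1 in K1 and K2, and with a single read on the low side the fitted fold change depends on the model. The deposited log2 fold change was -0.57 ± 0.09 (adjusted p = 2.12e-06, the authors' deposited table), and the call was lost without K1 (adjusted p = 0.2, refitted moderated test). No source used here gives the strand setting of the counting, so reads from the other strand cannot be told apart from its own. In GENCODE M21 no other annotated gene overlaps it on either strand. Whether reads from outside that annotation were counted was not tested. It lies far from Cpeb4 on the same chromosome.

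**Figure D3:**
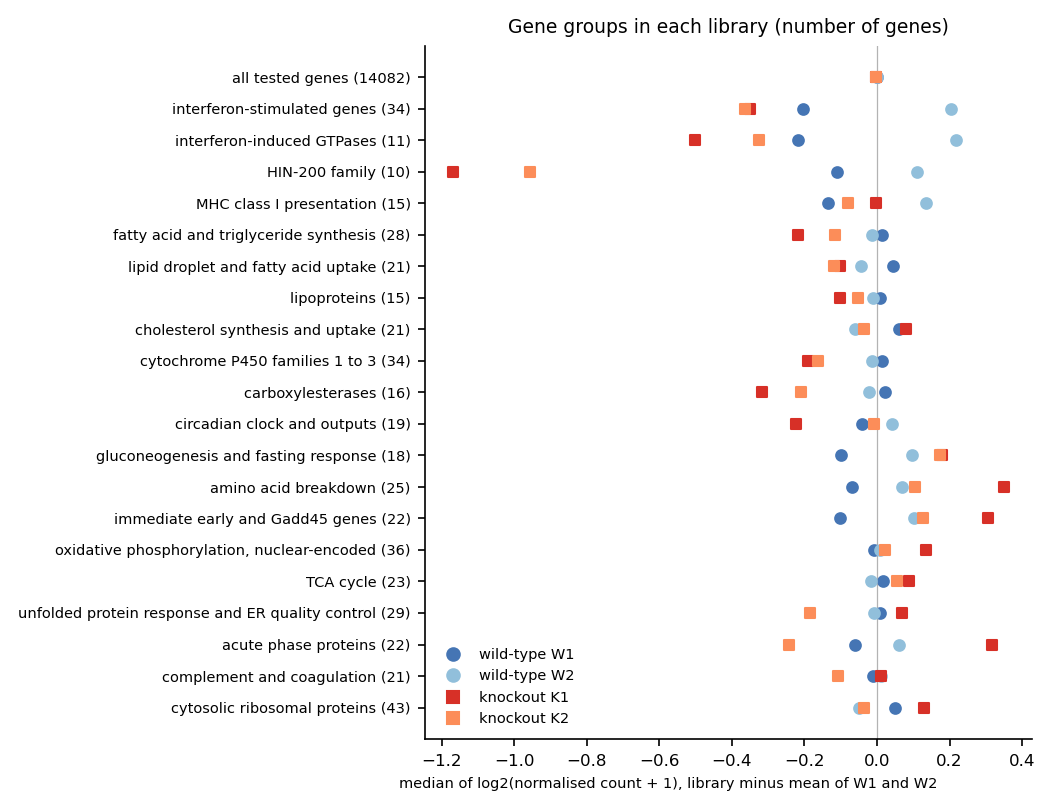
Median over the tested, recovered members of each gene group of log2(normalised count + 1) in a library, minus the mean of W1 and W2; circles are wild-type and squares knockout libraries, with the number of genes in brackets and no error bar. W1 and W2 lie at equal distances on either side of 0 in every group, because their mean is taken off. In the interferon lists both knockout libraries lie below both of them, acute phase genes show K1 at 0.32 and K2 at -0.24, and all tested genes lie near 0.

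Several gene groups separated the 2 knockout libraries from each other rather than from the wild type. Acute phase proteins, secreted by the liver in inflammation, had a median library value 0.32 above the wild-type mean in K1 and 0.24 below it in K2, with none of 27 tested members called; over 22 recovered members the median fold change was 0.02, and -0.08 without K1. Cytosolic ribosomal proteins lay above the wild-type mean in K1 in all 43 members and below it in K2 in 36, with a median of 0.04 that turned to -0.03 without K1 and to 0.00 without W2, with 25 of 43 below 0. Complement and coagulation genes lay below the wild-type mean in K2 in all 21 recovered members and in K1 in 6; their median fold change of -0.04 was -0.09 without K1 and turned to 0.01 without K2. Nuclear-encoded subunits of oxidative phosphorylation lay mostly on 1 side, with 35 of 37 tested members above 0, a median of 0.06 and none called. Both knockout libraries lay above the wild-type mean in 25 of 36 recovered members, against 30.4% of all tested genes. The median library value was 0.13 above the wild-type mean in K1 and 0.02 above it in K2, and without K1 the median fold change was 0.02. In the TCA cycle list 18 of 23 were above 0 with a median of 0.07 (0.04 without K1), and both knockout libraries lay above the wild-type mean in 17 of 23. Cycs, cytochrome c, was at 10245 in W1, 10321 in W2, 13500.4 in K1 and 11370.1 in K2, with K2 much nearer to the wild-type libraries than K1.

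Moderation shaped the sizes in the table. The authors' fit drew fold changes towards 0 with a prior SD of 0.173 on the log2 scale, a value that came out the same in all 146 genes used to find it. The deposited fold change was 0.089 of the unmoderated one in genes with a mean under 30, 0.37 between 100 and 300, and 0.70 above 10000 (slopes through 0). No deposited standard error exceeded 0.123 for that reason, although counts of low genes vary more. The median size of the called genes was 0.48 as deposited and 0.68 without moderation. As deposited, 41 of 42 have a size under 1; without moderation, 9 of the 41 recovered ones are at 1 or more: Cpeb4, Gadd45g, Ren1, BC018473, Rgs16, Ifi213, Coro2a, Mmd2 and Ifi206. The calls themselves did not rest on it, since the same 41 genes passed without moderation and no other did.

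**Figure D4:**
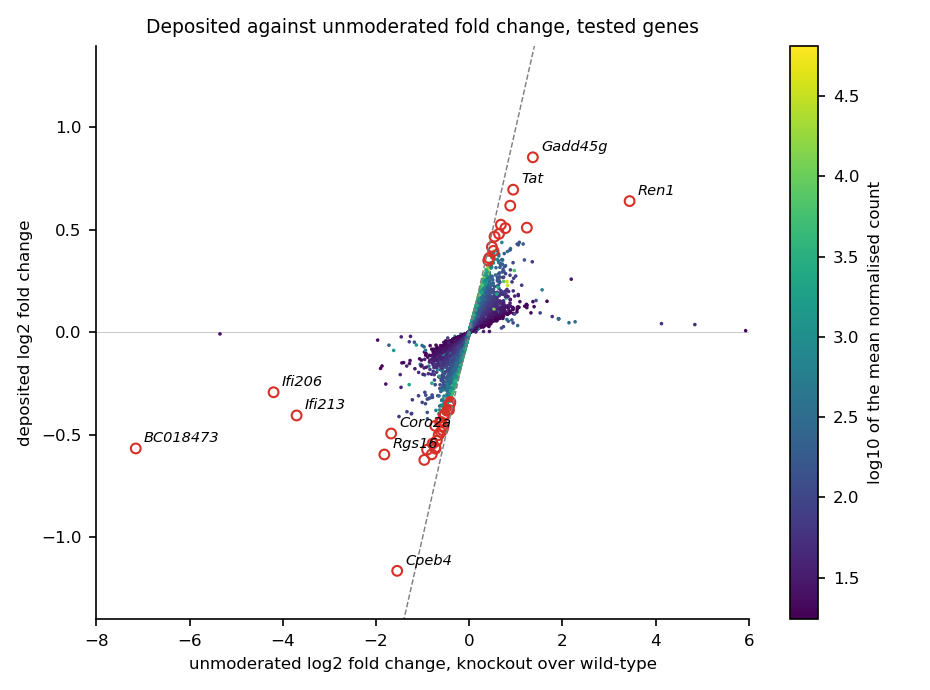
Deposited against unmoderated log2 fold change of tested genes that could be split into reads; each point is a gene, coloured by log10 of its mean normalised count, and red rings mark called genes. The dashed line is equality. Abundant genes lie nearer to it but are also drawn towards 0 (slope 0.70 above a mean of 10000). Genes of low mean are drawn most, as for Ren1 (0.64 against 3.44) and Ifi213 (-0.41 against -3.70).

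How far the 42 calls hold with so few libraries was measured in 2 ways. With limma on log2(normalised count + 1), which estimates the spread of each gene from its own libraries and borrows from genes of like level, 2 of 14082 genes passed, Cpeb4 and BC018473 (adjusted p = 0.0113 and 0.0428), and 1006 had an unadjusted p under 0.05; all 41 recovered called genes kept their sign. Gadd45g, Rgs16, Coro2a, Ifi213 and Ifi206 each had a limma adjusted p of 0.0977. Refitting the authors' moderated test on recovered reads without 1 library, with their size factors, dispersions and prior held, left 19 calls without W1, 30 without W2, 6 without K1 and 33 without K2, of which 19, 24, 6 and 25 were among the 42. All 41 recovered called genes kept their sign in each refit. Each refit leaves 1 library on a side, and calls can be lost from that alone. Coro2a lost its call without either knockout library although these were nearly equal, at 32.4 in K1 and 32.1 in K2. Cpeb4, Gadd45g and Hamp passed in all 4 refits, 31 passed in 1 to 3, and 7 in none (Igfbp2, Hamp2, Pltp, St6gal1, Arrdc3, Pdia5 and Elovl3). The 6 calls without K1 were Cpeb4, Gadd45g, Ren1, Serpina12, Hamp and Slc25a25.

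**Figure D5:**
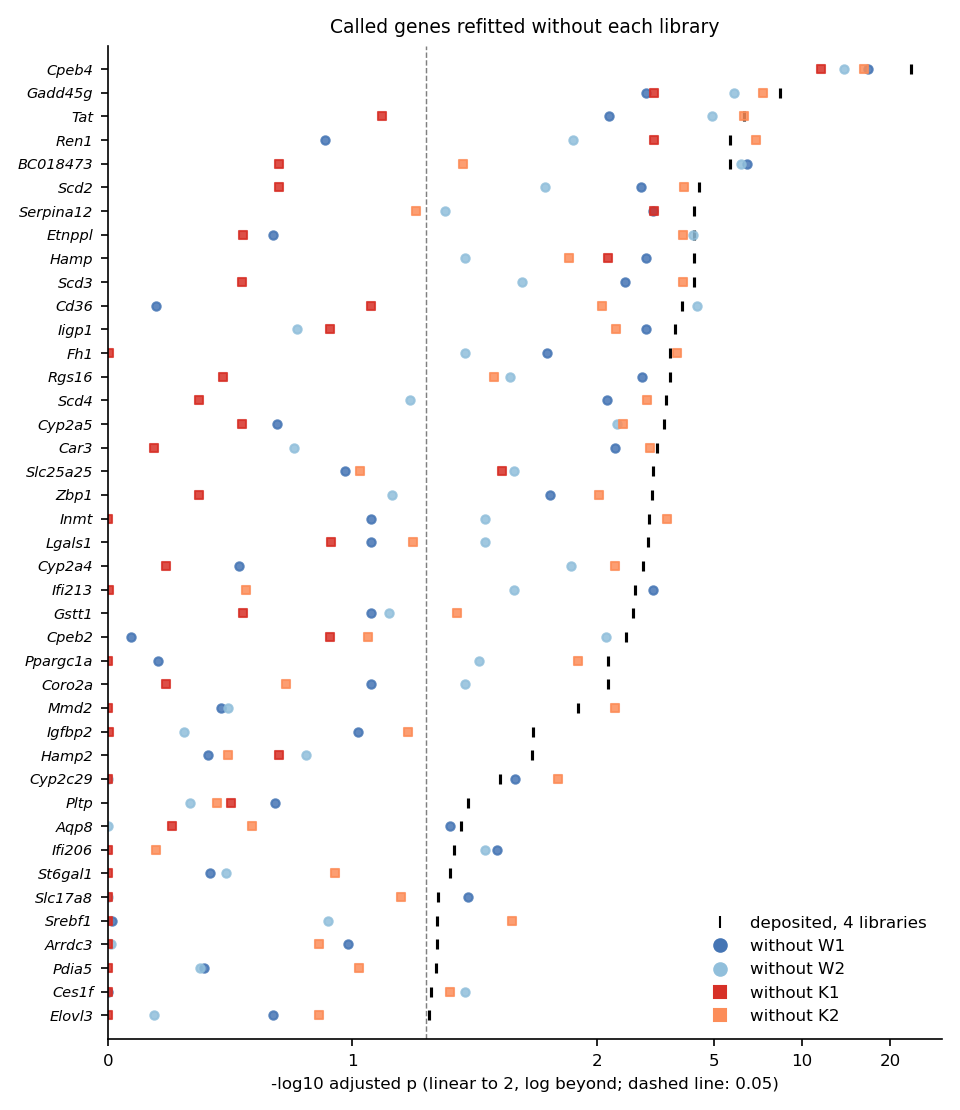
Minus log10 of the adjusted p of 41 called genes as deposited (black bars) and refitted without 1 library each (coloured points; circles leave out a wild-type library, squares a knockout library); the axis is linear to 2 and logarithmic beyond, and the dashed line marks 0.05. Without K1, 6 genes pass, and Cpeb4, Gadd45g and Hamp alone have all 4 points to the right of the line.

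Next to the threshold lay 20 genes with an adjusted p between 0.05 and 0.10 in the authors' deposited table, 14 of them higher and 6 lower, against 13 and 29 among called genes. The 10 with the smallest p were Pklr, Ube2l6, Sdr9c7, Slc25a15, Gm11788, Rab36, Serpine2, Sulf2, Myc and Errfi1. Ube2l6, the enzyme that attaches ISG15 to proteins, was at 2589 in W1, 3039 in W2, 1893 in K1 and 2123 in K2. Sdr9c7, a short-chain dehydrogenase, was at 2127 in W1, 2388 in W2, 1271 in K1 and 1723 in K2. Both lay below the wild-type libraries in both knockout libraries. Gm11788, an antisense gene, was at 93.8 in W1, 85.02 in W2, 33.98 in K1 and 28.8 in K2, an unmoderated log2 fold change of -1.51 ± 0.40, larger than that of most called genes. Rab36, a small GTPase, was at 559 in W1, 564 in W2, 1079 in K1 and 741 in K2, Serpine2, a protease inhibitor, at 80.3 in W1, 103 in W2, 220.1 in K1 and 162 in K2, and Sulf2, a heparan sulfatase, at 595 in W1, 597 in W2, 817 in K1 and 893 in K2. Errfi1, a feedback inhibitor of the EGF receptor, was at 21825 in W1, 27763 in W2, 32238 in K1 and 37144 in K2, and Egfr itself at 4327 in W1, 4649.8 in W2, 5832 in K1 and 5672 in K2. In each of the last 5 genes both knockout libraries lay above both wild-type libraries, without passing the authors' test.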

How the data were processed

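The authors aligned and compared the libraries using mm10, STAR (2.3.0e) and DESeq2 (1.6.3), per the submitters' processing notes, which give no roles; the annotation and the counting tool are not given in the sources used. Per the file headers, the deposited table holds for each gene a mean signal (counts over size factors), the log2 fold change and its SE, a Wald score, a p-value and an adjusted p-value, which is missing for 9454 genes of lower mean. It has no column per library and names neither the groups nor the direction.

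Single-read genes give the size factors (1.258, 0.717, 1.236 and 0.904 for W1, W2, K1 and K2). For each gene, whole-read combinations that give the deposited mean were listed. The one whose moderated negative binomial fit gives the deposited fold change at the deposited standard error was kept (within 1e-05, the next at least 100 times farther). Above a mean of 10000 not all combinations were searched. The search there kept to library values within a set distance of equal shares and to side ratios that could give the deposited fold change. Above a mean of 100000 no split was tried. The split was tested on simulated data. How well the limited search between means of 10000 and 100000 finds the right split was not tested separately. The genes not split hold 38.3% of the summed mean, so totals per library are of recovered genes only. Size factors recomputed as medians of ratios over 18355 genes were 1.258, 0.717, 1.235 and 0.904. Because the column is a mean, no count package was run on it; the main test is the authors' own, and limma 3.58.1 (R 4.3.3, trend, log2 with a pseudocount of 1, Benjamini-Hochberg), an alternative. The refits use dispersions solved from the deposited standard errors, which rest on all 4 libraries.

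Genes were matched to GENCODE M21 (23484 of 23634). Named genes are all called genes, the 10 nearest outside the threshold, and in each list the called and up to 3 next members; Cpeb1, Cpeb3 and single markers were named besides. The lists and this comparison were chosen with earlier results of these data known. Other filters, adjustments, centring, pseudocounts and scalings were tried, and each library was left out. Gene groups got no set test: their counts and medians stand beside those of all tested genes. Python 3.11.15 was used.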

Additional observations from a re-analysis of the deposited data

How the results depend on the processing

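The 42 calls (13 higher, 29 lower) stayed within 1.5 times in number with no filter on the mean (32), a mean of at least 100 (39), fold changes centred on their median (41), genes sharing sequence left out (39) and no moderation (41). They numbered 26 (8 higher, 18 lower) with the Benjamini-Yekutieli adjustment and 2 (0 higher, 2 lower) with limma on recovered reads. Leaving out 1 library, the moderated test called 6 to 33 genes, 4 to 15 higher and 2 to 18 lower; the moderation and leave-one-out refits were chosen after seeing the data. With limma, counts were 2 (0 higher, 2 lower) with a pseudocount of 5, library-size scaling or recomputed size factors, 1 lower with a pseudocount of 0.25 or a mean of at least 50, and 2 to 56 (0 to 26 higher, 2 to 33 lower) without 1 library, where the lone library is assumed to vary like the others. No called gene changed sign in any alternative. Over the same recovered members, group medians moved by over 0.107, the median standard error, in amino acid breakdown (0.03 without K1), the unfolded protein response (0.05 without K2), the interferon lists (-0.06 and -0.04 without W2, -0.31 for the GTPases without W1), HIN-200 (-0.06 without shared sequence), male-biased genes (0.04 without W1), hepatocyte markers (0.14 without W2, 1 recovered gene) and macrophage markers (0.02 without W1). Where 1 library was left out, part of a move towards 0 can come from the prior, which pulls harder when 1 side holds a single library. No paired analysis was possible because the recovered libraries cannot be tied to replicate numbers. Depth limits genes under a mean of 17.4, which have no adjusted p. Above a mean of 10000, 97 genes could not be split, while 412 tested genes could.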

Other observations

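Some genes were high in a single library and so far outside the comparison. Among genes with at least 80 normalised counts in their highest library, 8 were at least 4 times higher in K1 than in each other library, 2 in W1, 1 in W2 and 0 in K2; they were chosen after their values were seen. In K1 these included Ctrb1, a chymotrypsinogen of the pancreas, at 3.18 in W1, 2.79 in W2, 169 in K1 and 2.21 in K2, Prss2, a trypsinogen, at 0 in W1, 1.39 in W2, 81.7 in K1 and 0 in K2, Capn11, a calpain, at 6.36 in W1, 5.58 in W2, 204 in K1 and 4.43 in K2, and Sult1e1, the estrogen sulfotransferase, at 19.1 in W1, 32.1 in W2, 146 in K1 and 28.8 in K2. The amylase genes Amy2a2, Amy2a3, Amy2a4 and Amy2a5 had identical values in every library (125 in W1, 91.99 in W2, 719 in K1 and 99.6 in K2), so they are 1 measurement. In W1 the 2 genes were Tnnt3, a muscle troponin, at 89.04 in W1, 0 in W2, 0 in K1 and 2.21 in K2, and Marco, a scavenger receptor of macrophages, at 549 in W1, 79.4 in W2, 108 in K1 and 83.00 in K2. The 1 gene in W2 was Gm7291, at 83.6 there and 0 elsewhere. No gene of this set was called, the deposited log2 fold change of Ctrb1 being 0.04 and that of Marco -0.06.

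Cpa1, a pancreatic carboxypeptidase, had sides that do not overlap and a deposited p of 0.312 with no adjusted p, with no read in the wild-type libraries and 63.1 and 1.11 in K1 and K2. Neighbouring copies moved in one ratio in some pairs and not in others. Hamp2 stood at 0.222, 0.249, 0.214 and 0.22 of Hamp in W1, W2, K1 and K2, while Ifi206 stood at 0.827, 0.48, 0.6 and 0.25 of Ifi213, on few reads.

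Gene groups that the comparison left near the background complete the picture. Lysosome and autophagy genes had 13 of 26 tested members on each side of 0 and a median of 0.00, mitochondrial carriers 16 of 31 above 0 and a median of 0.02, and targets of the integrated stress response 13 of 23 above 0 and a median of 0.02, with none called in the first and last and Slc25a25 called among the carriers. Liver transcription factors had 15 of 20 below 0 and a median of -0.05, which was 0.01 without K1; K1 lay below the wild-type mean in 17 of 20 and K2 in 8. Sinusoidal endothelial markers had 6 of 11 below 0 and a median of 0.00, and stellate cell and fibroblast markers 9 of 12 below 0 and a median of -0.05, with none called in either. Leaving out 1 library turned the sign of the medians of the carriers (-0.01 without W2, 0.00 without K2), the stress response (0.00 without W1 or K2), the lysosome list (-0.02 without W2, -0.01 without K2) and the endothelial list (0.05 without W1, 0.00 without K2).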
